A study of Rattus norvegicus with 16 samples.

Results

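The nuclear genes that encode subunits of the mitochondrial oxidative phosphorylation complexes were followed in adult rat liver. They were taken by symbol: genes starting with Nduf (assembly factors left out), Uqcr, Atp5 (the inhibitor Atp5if1 left out), Cox4, Cox5, Cox6, Cox7 or Cox8, and Sdha, Sdhb, Sdhc, Sdhd and Cyc1. Of 26913 names on the array, 75 met the rule, and each was read from its brightest probe in liver. Complex I had 32 of them, complex II 4, complex III 8, complex IV 17 and complex V 14. For 70 of the 75, at least 1 group had 3 or 4 arrays with liver signal well above background, and these 70 were tested among 11091 features. RefSeq lists 110 protein-coding rat genes whose symbols meet the rule, and 74 of them had a probe matched by accession; the remaining name, Cox6c-ps1, is a transcribed pseudogene. Cyc1, the cytochrome c1 subunit of complex III, was not matched to a probe and is not analysed here.

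Complexes I and II pass electrons from NADH and succinate to coenzyme Q, complex III passes them on to cytochrome c, and complex IV hands them to oxygen. Complexes I, III and IV pump protons out of the mitochondrial matrix, and complex V, the ATP synthase, uses the returning protons to make ATP. Most subunits are nuclear-encoded, whereas a few core subunits of complexes I, III, IV and V come from the mitochondrial genome, and the liver relies on the system for gluconeogenesis, urea synthesis and fatty acid oxidation.

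The animals were male Sprague-Dawley rats aged 78 to 86 days, in 4 groups of 8 pups, and RNA was pooled from pairs of rats so that each group had 4 arrays. Mothers of the C and CC groups received corn oil alone; mothers of the M and MM groups received 1.0 mg/kg/day of a contaminant mixture in corn oil, made of organochlorine pesticides, polychlorinated biphenyls and methylmercury, from gestation to postnatal day 20. C and M pups stayed with their birth mothers, and CC and MM pups were moved at birth to another dam of the same treatment. A description label calls the M arrays a control, whereas the titles and treatment fields name the mixture; they were taken as exposed. Liver RNA (Cy5) was hybridised with a universal reference RNA made from 14 rat cell lines (Cy3), always in that dye orientation, and a log ratio below means log2 of liver over reference. A positive log ratio compares liver with those cell lines for one probe; it gives no order of transcript amounts between genes. The C and CC arrays lay on slide 1 and the M and MM arrays on slide 2, so exposure and slide cannot be told apart, whereas fostering was compared within a slide. Each slide has 2 rows, each with 2 arrays of either group. Per array, 35.0% to 41.9% of probes had liver signal well above background and 61.6% to 66.1% had such reference signal. All 15 probed hepatocyte markers were well above background in liver on all 16 arrays. Of 10 probed muscle markers, 2 were so on all 16 arrays and 6 on none, and of 5 probed adipocyte markers, 2 and 3. A lower transcript level in a pool can reflect fewer cells of a type or less RNA per cell, and these cannot be told apart.

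Promoters of the family are known for binding sites of nuclear respiratory factor 1 (NRF1), the ETS factor GABPA and YY1. Windows from 250 bases before to 50 after the annotated start were taken from RefSeq (GRCr8) and matched 65 of the 75 genes. The NRF1 core GCATGCGC lay in 9 of 65 windows (13.8%), against 2.66% of 27457 promoters, and the full palindrome, which is that core with GC before it, in 4 (6.15%, against 0.932%). The ETS motif CCGGAAG lay in 20 (30.8%, against 9.22%) and the YY1 motif AAGATGGC in 12 (18.5%, against 3.44%). Of the other motifs searched, the estrogen-related receptor motif TCAAGGTCA lay in 1 member window (1.54%, against 0.412%), the GC box GGGCGGG lay in 24.6% of member windows and 24.2% of all, and CCAAT in 33.8% and 37.7%. Both strands were searched, a match is a description of letters and not of a bound site, and median GC content was 56.3% in the member windows and 52.3% in all. The 120 bases before the start are given for the 4 genes with the full palindrome and for Atp5f1b, whose 300-base window held none of the NRF1, ETS or YY1 letters and whose transcript is described most fully below; capitals mark NRF1 and ETS matches, and the 2 copies in Ndufa11 overlap.
Atp5mc2, chr7:135678219-135678338 (minus strand): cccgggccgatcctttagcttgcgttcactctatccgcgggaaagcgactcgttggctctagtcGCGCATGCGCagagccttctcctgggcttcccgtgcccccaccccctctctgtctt
Atp5me, chr14:1464740-1464859 (plus strand): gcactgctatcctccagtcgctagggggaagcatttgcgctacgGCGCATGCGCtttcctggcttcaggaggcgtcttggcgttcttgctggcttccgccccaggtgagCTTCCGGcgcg
Atp5po, chr11:44657484-44657603 (minus strand): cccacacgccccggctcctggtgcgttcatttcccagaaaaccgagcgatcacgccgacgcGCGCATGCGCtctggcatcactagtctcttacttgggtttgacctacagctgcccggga
Ndufa11, chr9:1637494-1637613 (plus strand): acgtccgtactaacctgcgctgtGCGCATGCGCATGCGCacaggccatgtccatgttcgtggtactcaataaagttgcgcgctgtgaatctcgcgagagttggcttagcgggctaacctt
Atp5f1b, chr7:1099938-1100057 (plus strand): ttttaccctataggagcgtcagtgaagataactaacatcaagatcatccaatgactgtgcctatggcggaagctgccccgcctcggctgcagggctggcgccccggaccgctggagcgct

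In control livers (C), the subunit genes had mostly positive log ratios. Their median log ratio was 0.66, and 64 of 70 were above 0, whereas the median of all 11091 tested features was 0.12 with 6100 above 0. Complex II was highest, with a median of 1.31 over its 4 genes, followed by complex I (0.72, 31 of 32 above 0), complex III (0.61, 7 of 8), complex V (0.52, 12 of 14) and complex IV (0.33, 10 of 12). Among pathways that feed or build the system, the citric acid cycle had a median of 0.57 over 18 genes, coenzyme Q synthesis 0.80 over 11, the mitochondrial ribosome 0.30 over 62, and regulators of mitochondrial biogenesis 0.25 over 17. Electron carriers and ATP/ADP exchange lay the other way, at -0.39 with 5 of 13 above 0. These are counts and medians over probes of the same arrays and carry no test.

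Outside complex II, single genes of a complex lay further apart than the medians of the complexes. In complex I the highest ratio belonged to Ndufa4, a small subunit first assigned to complex I and now placed with complex IV, at 1.68, 1.71, 1.76 and 1.59 on the 4 C arrays (mean 1.68 ± 0.07 SD, 3.21-fold over the reference). The lowest belonged to Ndufa12, an accessory subunit, at -0.44 ± 0.23 (SD, n = 4). Ndufv1, which carries the NADH and FMN site, stood at 0.19 ± 0.08, and Ndufs1, Ndufs3, Ndufs7 and Ndufs8 lay between 0.60 and 1.31.

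All 4 complex II genes lay close together, although Sdha and Sdhc varied more between arrays than Sdhb and Sdhd. Sdha, the flavoprotein that oxidises succinate, read 0.96, 1.41, 1.66 and 1.63 in C (1.41 ± 0.32 SD), and Sdhb, the iron-sulphur subunit, 1.38, 1.31, 1.57 and 1.26 (1.38 ± 0.13). The membrane anchors Sdhc and Sdhd averaged 1.24 ± 0.27 and 1.21 ± 0.07 (SD, n = 4). The 4 means differed by less than the SD of Sdha. Sdha was lowest on replicate 9, the array on which Sdhc was highest (1.56).

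In complex III, Uqcr10 was highest (1.12 ± 0.42) and the hinge protein Uqcrh lowest (-0.08 ± 0.06), with the core proteins Uqcrc1 (0.09 ± 0.24) and Uqcrc2 (0.61 ± 0.05) and the Rieske protein Uqcrfs1 (0.43 ± 0.13) between them (SD, n = 4). In complex V the highest ratio was that of the membrane subunit Atp5me (1.37 ± 0.25) and the lowest those of the F1 delta subunit Atp5f1d (-0.18 ± 0.26) and the catalytic beta subunit Atp5f1b (-0.13 ± 0.16). The alpha and gamma subunits Atp5f1a and Atp5f1c stood at 0.45 ± 0.07 and 0.81 ± 0.06, and the epsilon subunit Atp5f1e at 0.98 ± 0.27. The c-subunit of the rotor ring is encoded by several genes with the same mature product: Atp5mc1 read 1.31 ± 0.28 and Atp5mc2 0.50 ± 0.29.

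Complex IV has tissue isoforms. The muscle forms Cox6a2 and Cox8b were probed, whereas Cox7a1 was not matched to a probe. Cox6a2, the heart and skeletal muscle isoform, was not well above background in liver on any of the 16 arrays but was so in the reference RNA on all 16; its widely expressed partner Cox6a1 was detected throughout and averaged -0.14 ± 0.15 (SD, n = 4) in C. The muscle isoform Cox8b was above background in liver on 1 C array and 2 CC arrays, no M array and 1 MM array, while Cox8a was detected on all and averaged 0.25 ± 0.16. Cox8c, Cox6c-ps1 and Cox7c were at background in liver on at least 15 of 16 arrays and in the reference channel too, so their probes gave no reading of either RNA. Cox4i2, the isoform tied to low oxygen and to lung, was above background on all 16 arrays at 0.30 ± 0.09 in C, beside 0.59 ± 0.42 for Cox4i1. Cox6b2, known from testis, read 0.74 ± 0.16 beside 0.35 ± 0.32 for Cox6b1, and Cox7a2 0.27 ± 0.19. Cox7b had the highest ratio of the complex (1.32 ± 0.16). The lowest of all 70 was Cox7a2l, a factor in the assembly of complexes III and IV into supercomplexes, at -1.12, -1.17, -1.35 and -1.36 (-1.25 ± 0.12, or 0.421 of the reference); it was lowest in every group, with means from -1.27 (M) to -1.21 (MM).

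**Figure D1:**
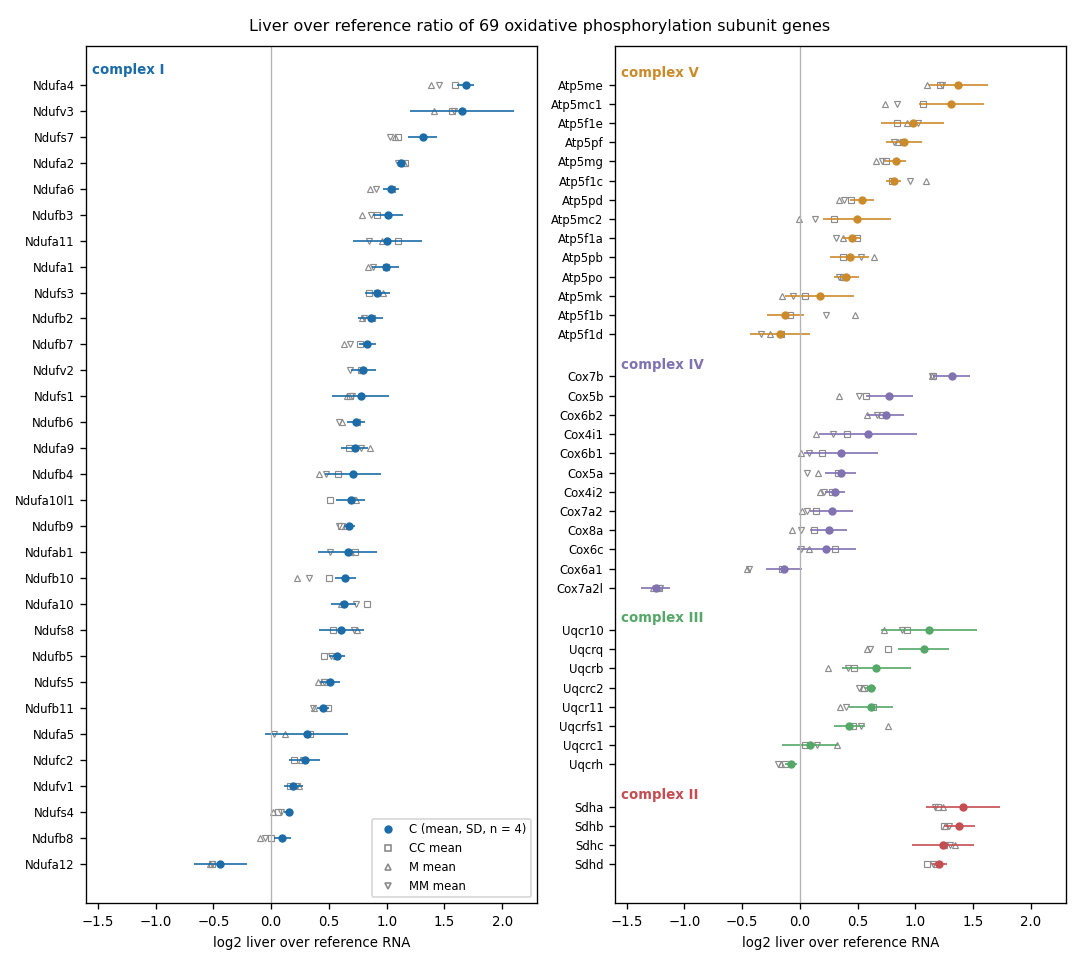
Log2 liver over reference for 69 of the 70 tested subunit genes by complex. Filled points are C means with SD over 4 arrays, and open grey symbols the CC, M and MM means; 63 of the 69 C means lie above 0, and Cox7a2l stands lowest at -1.25.

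The probes of one gene did not always give one level. Over the 16 arrays, 3 probes of Ndufv3 averaged from 0.48 to 1.70, 2 probes of Atp5mc2 -0.65 and 0.23, and 3 probes of Uqcr11 0.06 to 0.55. Uqcrb (0.45 and 0.70) and Ndufs5 (0.46 and 0.67) differed less. Several of these families have near-identical copies in the rat genome, and how far a probe reads such copies was not tested. Outside the complexes, cytochrome c (Cycs) stood at 1.01 ± 0.15 in C, the ATP synthase inhibitor Atp5if1 at -1.80 ± 0.25, and the mitochondrial transcription factor Tfam at 0.47 ± 0.14. Of the regulators, Gabpa averaged 0.40 ± 0.07, Esrra -0.45 ± 0.05 and Nrf1 -0.52 ± 0.15 (SD, n = 4), and the coactivator Ppargc1a was not well above background on any array.

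Many of the subunit genes differed between the slide rows. Row 2 was compared with row 1 in a limma fit with the 4 group means and a row term for each slide, a comparison chosen after the data were seen. In the liver channel, 28 of the 70 genes were higher in row 2 and 19 lower (adjusted p under 0.05). That is 67.1%, against 45.9% of all tested features. Of all 11091 features, 2423 were higher and 2667 lower. The subunit genes are bright: in C the median liver signal averaged 12.03 log2 units for them and 7.69 for all features. The share of bright features called between rows was not counted. The reference channel of the same arrays gave none of the 70 (1.34% of all features), and the log ratio 25 higher and 20 lower (64.3%, against 42.8%). Over all features the log ratio gave 2232 higher and 2512 lower. All 47 genes called in the liver channel differed in the same direction on both slides. The call was made on the mean of both slides, which favours such genes, so this is not a separate test.

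Genes of one complex went opposite ways between the rows. In complex IV, Cox6b1 read 11.66, 12.08, 12.54 and 12.50 log2 units of liver signal on the CC arrays and 11.77, 11.82, 12.73 and 12.49 on the MM arrays, where the first pair of each set lies in row 1. Its row difference was 0.65 ± 0.07 (SE), whereas that of Cox6c, another small complex IV subunit, was -0.56 ± 0.08. In each group the row 2 arrays lay above the row 1 arrays for Cox6b1 and below them for Cox6c.

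The same split ran through the other complexes. In complex II, Sdha was 0.59 ± 0.09 higher in row 2 and Sdhc fell by 0.48 ± 0.07, while Sdhd differed by 0.01 ± 0.05 (SE; limma adjusted p = 0.000183, 0.000109 and 0.861). In complex III, Uqcrb (0.64) and Uqcr10 (0.58) stood against Uqcr11 (-0.59), in complex I Ndufv3 (0.50) and Ndufs8 (0.46) against Ndufa5 (-0.57) and Ndufa11 (-0.54), and in complex V Atp5mk (0.58) against Atp5f1d (-0.44). The complex IV subunit Cox4i1 was 0.46 ± 0.07 higher in row 2. The row difference over the 70 genes had a median of 0.06 in the liver channel beside -0.004 for all features.

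Separate probes of one gene disagreed on the row difference. Of 12 genes with 2 or more probes above background, 4 had probes on both sides of 0. The 3 probes of Uqcr11 gave -0.59, 0.62 and 0.31, the 2 of Atp5mc2 0.35 and -0.66, and the 2 of Ndufa10l1 0.10 and -0.43. For Cox6b1 the 3 probes gave 0.65, 0.10 and 0.27, all in one direction but of unequal size. What the row difference comes from was not tested. Other lists varied. Of 18 citric acid cycle genes, 3 were higher and 9 lower in row 2 of the liver channel (median -0.13). Of 5 erythroid markers none was higher and 2 were lower (median -0.24), and of 15 hepatocyte markers 2 were higher and 1 lower (median -0.01). Of 10 stellate cell markers 2 were higher and 2 lower, and of 12 macrophage and of 6 endothelial markers 1 and 1. Of 4 muscle markers 1 was higher, and of 2 adipocyte markers 1 was lower. None of 4 cholangiocyte or 3 T and NK cell markers was called.

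**Figure D2:**
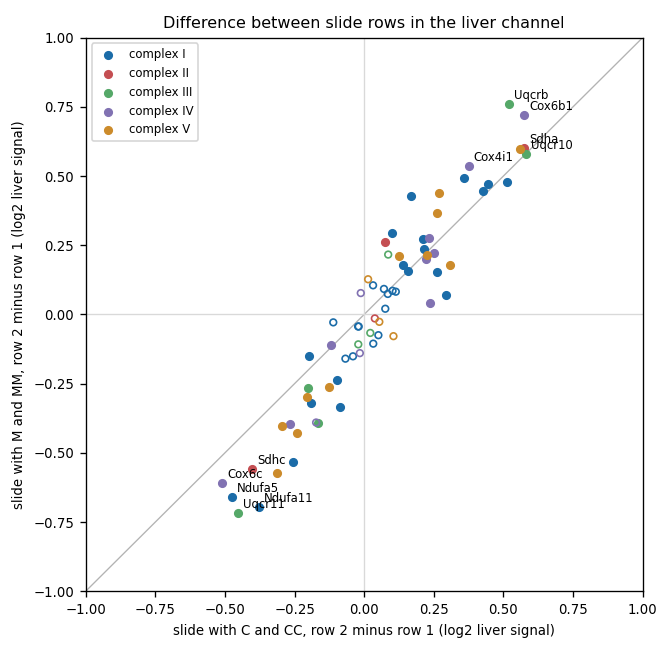
Row 2 minus row 1 in log2 liver signal for each subunit gene on the slide with C and CC (x) and the slide with M and MM (y); filled points are the 47 genes called in the fit over both slides, open points the rest, and the line marks equality. All 47 called genes lie in the lower left or upper right quadrant, from Uqcr11 at -0.59 to Cox6b1 at 0.65 over both slides. They were called on the mean of both slides, which favours these quadrants.

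**Figure D3:**
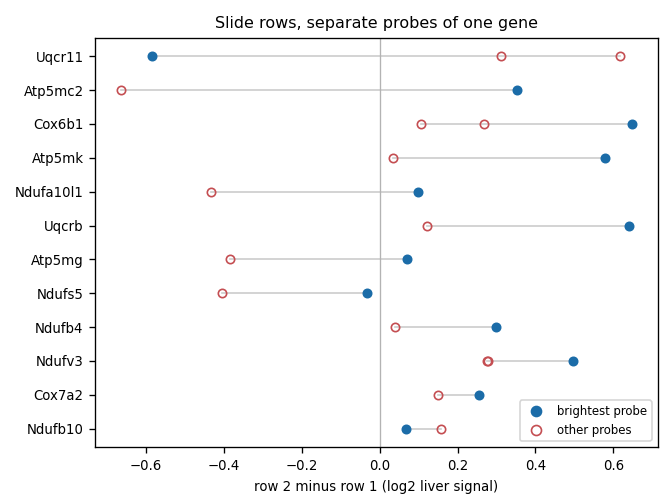
Row 2 minus row 1 in log2 liver signal for each probe above background of the 12 genes with 2 or more such probes; filled points are the brightest probe, open points the others. The probes of Uqcr11 run from -0.59 to 0.62 and those of Atp5mc2 from -0.66 to 0.35.

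After the group means were subtracted, the per-array median of the subunit genes was followed most closely by C19h1orf198 (r = 0.95), the mitochondrial and peroxisomal glutathione transferase Gstk1 (0.95) and the mitochondrial ribosomal protein Mrpl17 (0.94). Of 11021 other features, 1480 had r above 0.7. Of the 70 subunit genes 23 did, but the median was taken over these same genes, so the counts cannot be compared. These are correlations over 16 arrays that share reference, slides and rows, and are given as a description.

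CC minus C asked whether moving control litters to another dam at birth left a mark in adult liver. None of the 70 genes passed, and none had an unadjusted p under 0.05 in limma (107 of 11091 features did; 0.0% were called). The median difference was -0.065, with 52 of 70 genes below 0, beside a median of -0.008 and 5901 of 11091 below 0 for all features. Leaving out CC replicate 1 gave -0.036, C replicate 11 gave -0.044 and CC replicate 3 gave -0.098. The lowest value was that of Uqcrq, a small complex III subunit, which read 0.77, 1.31, 1.08 and 1.13 in C and 0.67, 0.73, 0.55 and 1.09 in CC, a difference of -0.31 ± 0.16 (SE; 95% confidence interval -0.65 to 0.03). Its probe is dim: it cleared the background on every C and CC array and on 3 of 4 in either exposed group. The highest was that of the complex I subunit Ndufa10 (0.20 ± 0.10, interval -0.01 to 0.42), whose CC values of 0.67 to 1.05 overlapped the C values of 0.55 to 0.78; the groups overlapped for all 70 genes, whereas 0.884% of all features did not overlap. In the liver channel alone the extremes were Ndufa10 (0.20) and its paralog Ndufa10l1 (-0.24 ± 0.10), with a family median of -0.040 (-0.018 with CC replicate 1 left out, -0.068 with C replicate 10 left out) and none of the 70 called (0.0% of all features; 2 had an unadjusted p under 0.05).

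MM minus M asked the same in exposed litters, and again none of the 70 genes was called in the log ratio (0.0% of all features; none at an unadjusted p under 0.05). The median was 0.013, with 37 genes above 0, and its sign was not stable: it was -0.025 with a normexp offset of 16 and within slide row 1, -0.011 in the scanner software's log ratio, and -0.009, -0.005 and -0.008 without MM replicate 3, MM replicate 4 and M replicate 8. Uqcrb was highest (0.17 ± 0.25) and Atp5f1b lowest (-0.25 ± 0.12, interval -0.51 to 0.00). The interaction, the difference between both fostering effects, had a median of 0.063 (0.10 with CC replicate 3 left out, 0.024 with a normexp offset of 16) with 47 of 70 above 0 and none called (0.0% of features; 1 gene at an unadjusted p under 0.05). Its extremes were Uqcrb (0.37 ± 0.35) and Atp5f1b (-0.29 ± 0.17), and in the liver channel Atp5mc2 (0.32 ± 0.24) and Atp5f1b (-0.29 ± 0.18), where again none of the 70 was called in either comparison (0.0%). Leaving out single arrays moved both liver channel values but kept their sign. Atp5mc2 ran from 0.19 without MM replicate 3 to 0.46 without M replicate 7. Atp5f1b ran from -0.38 without CC replicate 1 to -0.18 without CC replicate 4. In the log ratio, Uqcrb was 0.20 without CC replicate 1 in the interaction and 0.02 without MM replicate 3 in MM minus M, and Atp5f1b was -0.19 without CC replicate 4 in the interaction.

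M minus C compared exposed with control livers among pups that stayed with their mothers. In the log ratio, 2 of the 70 genes passed in limma, 1 higher and 1 lower, beside 4.1% of all features (1.54% higher, 2.56% lower). Atp5f1b, the catalytic beta subunit of ATP synthase, was higher in M, and Ndufb10, an accessory subunit of the complex I membrane arm, was lower. The median difference was -0.121 with 56 of 70 genes below 0, beside -0.029 and 6266 of 11091 for all features. That direction depended on the scaling within arrays: with median centring in place of loess the family median was 0.039 with 42 of 70 above 0, when the median of all features moved to 0.065, and in the authors' deposited value table it was -0.046 with 28 of 70 above 0. Bright features went the same way as the family: of 2174 other features with a liver signal of at least 10 log2 units, 71.5% were below 0 in M minus C, with a median of -0.11.

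Atp5f1b read -0.27, -0.22, -0.10 and 0.09 in C and 0.29, 0.47, 0.51 and 0.63 in M. The groups did not overlap, the difference was 0.60 ± 0.12 (SE; interval 0.34 to 0.86; limma adjusted p = 0.0102), and it ran from 0.55 to 0.67 when any single array was left out. It was 0.63 within row 1 (adjusted p = 0.0426) and 0.58 within row 2 (0.181). The channels shared the difference: liver signal read 8.91, 8.96, 9.11 and 9.25 in C and 9.18, 9.39, 9.44 and 9.53 in M, a difference of 0.33 ± 0.13 that was not called (limma adjusted p = 0.47), while the reference RNA on the same arrays read 10.63, 10.65, 10.64 and 10.61 in C and 10.35, 10.35, 10.36 and 10.34 in M (-0.28 ± 0.02, limma adjusted p = 7.42e-08). The reference is the same RNA on every array; what moved its signal was not tested.

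Ndufb10 read 0.53, 0.68, 0.62 and 0.74 in C and 0.15, 0.19, 0.42 and 0.14 in M, without overlap. Its difference was -0.41 ± 0.11 (SE; interval -0.65 to -0.18; limma adjusted p = 0.0452), its second probe gave -0.32, and in the liver channel it was -0.32 ± 0.11 (limma adjusted p = 0.396), beside 0.10 in the reference channel. The call was lost when any one of 11 arrays was left out, namely each C array, M replicates 5, 6 and 8, CC replicates 2 and 4 and MM replicates 1 and 4, with differences from -0.45 to -0.38 and adjusted p from 0.0504 to 0.131.

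**Figure D4:**
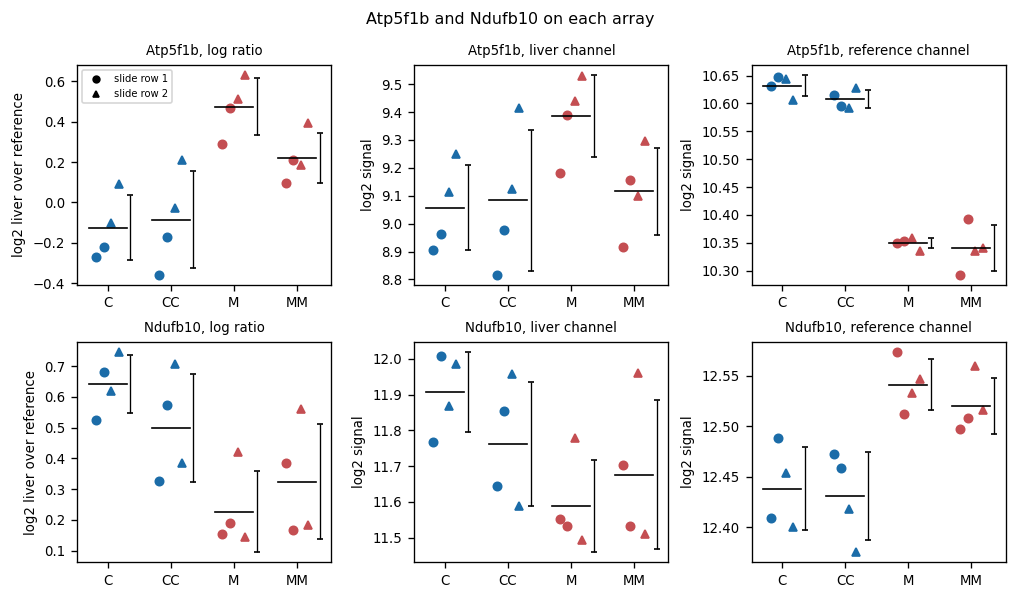
Atp5f1b (top) and Ndufb10 (bottom) on each array: log2 liver over reference, log2 liver signal and log2 reference signal, with circles for slide row 1, triangles for row 2, a line at each group mean and a bar for the SD (n = 4). For Atp5f1b the reference signal lies near 10.6 on the C and CC arrays and between 10.29 and 10.39 on the M and MM arrays.

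The other complexes showed the family pattern without calls. In complex IV all 12 tested genes were below 0 in M minus C, with a median of -0.23, and under median centring 10 of 12 were below 0 with a median of -0.05. Cox5b was the nearest to a call (-0.43 ± 0.12, limma adjusted p = 0.0537). In the liver channel 8 of the 12 were below 0 with a median of -0.08, while in the reference channel 10 of 12 were above 0 with a median of 0.09. The most negative difference of the family was that of the c-subunit gene Atp5mc1 (-0.57 ± 0.20, limma adjusted p = 0.136). In complex II the differences ran from -0.17 (Sdha) to 0.10 (Sdhc), with 3 of 4 below 0 and none called. The groups did not overlap for 12 of the 70 genes (2 higher, 10 lower), beside 10.9% of all features. After Atp5f1b, the most positive differences were those of Uqcrfs1 (0.34), Atp5f1c (0.28), Uqcrc1 (0.24) and Atp5pb (0.21), none of them called, and all 4 were called lower in the reference channel (-0.25, -0.19, -0.20 and -0.13).

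In the liver channel alone, M minus C called none of the 70 genes, and 0.00902% of all features (limma; 5 genes had an unadjusted p under 0.05). The median was -0.030 with 41 of 70 below 0, from -0.34 ± 0.19 for Cox4i1 to 0.33 for Atp5f1b. Single arrays moved that median: it was -0.002 without C replicate 9, -0.017 without C replicate 10 and -0.008 without M replicate 8, and between -0.067 and -0.051 without C replicates 11 or 12 or M replicates 5 or 6. Cox4i1 signal read 14.26, 14.62, 14.90 and 14.70 in C and 13.99, 14.12, 14.60 and 14.41 in M, with overlapping groups.

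The reference channel, which holds no liver RNA, differed between control and exposed arrays for many of the same genes. M minus C called 26 of the 70 higher and 13 lower, beside 48.5% of all features (22.3% higher, 26.2% lower), and MM minus CC 25 higher and 10 lower, beside 45.3% (21.3% higher, 24% lower). The lists shared 33 genes, 84.6% of the first and 94.3% of the second, and all 33 went the same way; these comparisons share no arrays but share both slides. The differences were small and tight. Cox5a read 11.97, 11.97, 11.94 and 11.94 in C and 12.17, 12.19, 12.18 and 12.12 in M, a difference of 0.21, and 0.24 in MM minus CC. Ndufv1 differed by -0.21 and -0.24, Uqcrc1 by -0.20 and -0.20, Uqcrfs1 by -0.25 and -0.24, and Ndufa4 by 0.32 and 0.26. Cox6b2 had the largest positive value in M minus C (0.33) and Atp5f1b the largest negative one in both (-0.28 and -0.27). All 8 complex IV genes called in M minus C, and all 9 in MM minus CC, were higher on the slide of exposed animals.

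**Figure D5:**
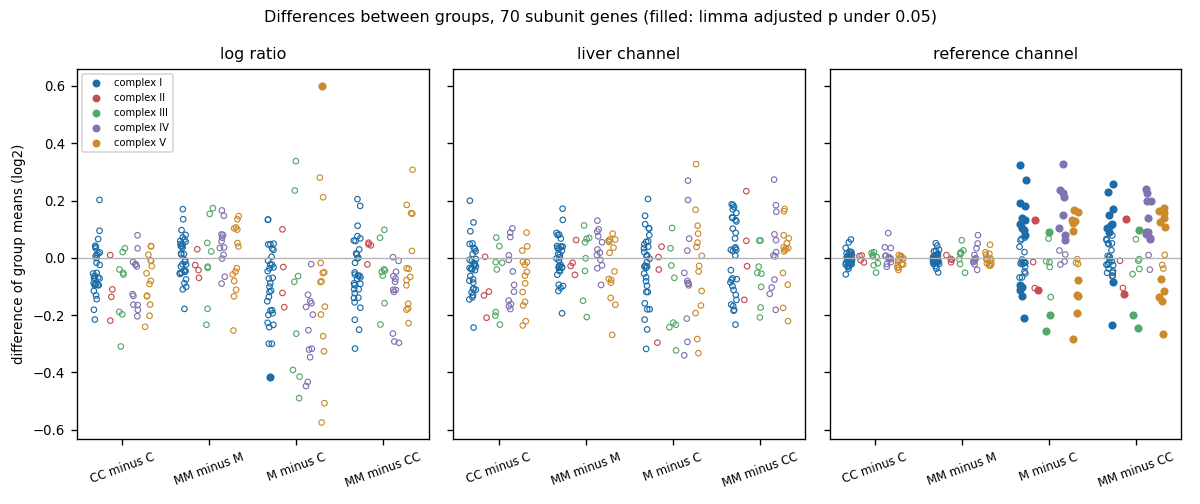
Differences of group means for the 70 genes in the log ratio, the liver channel and the reference channel, in log2 units, coloured by complex; filled points passed limma at an adjusted p under 0.05. Both fostering comparisons show no filled point in any panel, the liver channel none at all, and the reference channel 39 in M minus C and 35 in MM minus CC.

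MM minus CC compared exposed with control livers among fostered litters. None of the 70 genes was called in the log ratio, beside 0.902% of all features (limma; 2 genes had an unadjusted p under 0.05). The median was -0.062 with 48 of 70 below 0, beside -0.025 for all features. Without CC replicate 3 or MM replicate 2 it was -0.025, with 29 and 31 of 70 above 0, and it was 0.009 in the authors' deposited value table and 0.016 under median centring. Atp5f1b was again highest: it read -0.36, -0.17, -0.03 and 0.21 in CC and 0.10, 0.21, 0.19 and 0.39 in MM, a difference of 0.31 ± 0.12 (interval 0.05 to 0.57; limma adjusted p = 0.329) with overlapping groups. In this comparison 1 of the 70 genes had groups that did not overlap, beside 6.61% of all features. Ndufa5 was lowest (-0.32 ± 0.23) and moved to -0.13 without MM replicate 3. Ndufb10 differed by -0.17 ± 0.11. In the liver channel, where 0.027% of all features (0.018% higher) and none of the 70 were called, Cox7a2l was highest (0.27 ± 0.09) and Ndufb6 lowest (-0.23 ± 0.07); both had groups that did not overlap, as had 4.24% of all features, and the limma adjusted p was 0.495 and 0.408. In complex IV, 11 of 12 genes were below 0 in the log ratio and 4 of 12 in the liver channel.

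With the slide row as a block, which removes the row differences from the spread, 15 of the 70 genes were called in M minus C (10.8% of all features): Atp5f1b, Atp5f1c and Uqcrfs1 were higher, and Atp5mc1, Atp5mc2, Cox4i1, Cox5b, Cox6a1, Cox6b1, Cox8a, Ndufa4, Ndufb10, Uqcr11, Uqcrb and Uqcrq lower. In MM minus CC the block called Cox6a1 (-0.29 ± 0.06, limma adjusted p = 0.0171) and Cox6c (-0.30 ± 0.08), beside 4.02% of all features. Cox6a1, the widely expressed isoform, read 0.08, -0.04, -0.31 and -0.34 in CC and -0.32, -0.28, -0.64 and -0.53 in MM, where the first pair of each group lies in row 1 and MM is lower than CC within either row. Its liver signal gave -0.13 and its reference signal 0.09. The liver channel called none of the 70 with the block in any comparison, nor did the fostering comparisons in the log ratio.

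Neighbouring pathways were counted in the log ratio, where 4.1% of all features passed in M minus C and 0.902% in MM minus CC. None of the 13, 2, 5, 14 and 4 tested assembly factors of complexes I to V passed in M minus C or MM minus CC. Among citric acid cycle genes, 1 of 18 passed in M minus C, the malate dehydrogenase Mdh2 (0.55 ± 0.09, limma adjusted p = 0.00333). Among mitochondrial ribosomal proteins 1 of 62 did, Mrpl38 (-0.50 ± 0.08), and none of the 11 coenzyme Q genes or the 13 carriers. Yy1, whose motif was counted above, was the 1 of 17 biogenesis regulators that passed. It differed by -0.52 ± 0.09 in M minus C (limma adjusted p = 0.00479) and -0.45 ± 0.09 in MM minus CC (0.0279). In the liver channel, M minus C called 1 of 11091 features higher and 0 lower, so neither Yy1 nor Mrpl38 was called lower there. MM minus CC called 2 higher and 1 lower in that channel, and these are not named here. Single channel values of Yy1, Mdh2 and Mrpl38 are not given. The reference channel called 48.5% of all features in M minus C and 45.3% in MM minus CC. Cycs (-0.19 ± 0.12), Atp5if1 (0.07 ± 0.14), Tfam (0.07 ± 0.10), Gabpa (-0.06 ± 0.11), Esrra (-0.07 ± 0.07) and Nrf1 (0.03 ± 0.13) did not pass in M minus C.

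Marker lists of the liver's cell types gave 6 calls in M minus C in the log ratio. Of 15 hepatocyte markers none was above 0 in the M minus C log ratio (median -0.28; Apoa2 -0.44 ± 0.12 and Tf -0.56 ± 0.15 passed), and the liver channel median of the list was 0.03. The other calls were 1 of 6 endothelial markers (Eng, 0.66), 1 of 12 macrophage markers (Slc11a1, 0.49), 1 of 10 stellate cell markers (Pdgfrb, -0.48) and 1 of 5 erythroid markers (Hbb-b1, -0.88), and none passed among 4 cholangiocyte, 3 T and NK cell, 4 muscle and 2 adipocyte markers. In MM minus CC none of these lists had a call. The liver channel called 0 of 11091 features lower in M minus C, so Apoa2, Tf, Pdgfrb and Hbb-b1 were not called lower there. The summed liver signal of the hepatocyte list ran from 1171476 to 1208560 in C and from 1146723 to 1214890 in M, and those of the macrophage (8996 to 15320 and 11971 to 13620), stellate cell (4240 to 4435 and 3359 to 5049) and endothelial lists (2343 to 3185 and 2501 to 3276) overlapped as well. The erythroid sum ran from 39641 to 50379 in C and from 19343 to 32200 in M, without overlap, and from 22991 to 43339 in CC and 24469 to 70921 in MM, with overlap. Their part in the subunit values was not tested.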

How the data were processed

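Liver RNA of 16 pools was read on 2-colour Agilent arrays (design 028279). Per the file headers, the deposited scanner files (Agilent Feature Extraction 11.0.1.1) hold median spot and background intensity of both channels and a log10 ratio of red over green that the scanner software had corrected. The authors' deposited value table was taken as log2 liver over reference: it correlated at 0.989 to 0.995 with loess ratios of the scanner values (slopes 0.979 to 0.994), its array medians were -0.04 to -0.03, and the sources used here do not give how it was centred.

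Intensities were corrected with normexp (offset 50) and loess within arrays in limma 3.58.1 (R 4.3.3), with control spots at weight 0 and spots marked as outliers (732 to 1138 per array) left out. Single channels were quantile-normalized after normexp, so a log ratio need not equal the difference of its channels. Of 30367 probes, 18005 took a RefSeq GRCr8 symbol by accession without version; the brightest probe per name was kept. Features were tested with 4 group means and Benjamini-Hochberg adjustment over 11091 features, and an adjusted p under 0.05 is a call. The replicates are pools of 2 rats, and the 4 arrays of each group lie over 2 slide rows. The main fit had no row term, so its p-values measure a spread that holds both pools and rows. Simulated data with 4 arrays per group had independent normal noise for each feature, without row or slide structure, and changes were given to random features. There, 51 of 100 changes of 0.5 and 91 of 100 changes of 1 (log2) were recovered in CC minus C, and 47 and 87 in M minus C. The number of arrays was not varied.

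The members, gene lists and tests were chosen with earlier results of these data known. Genes named are the extremes of each complex and comparison, up to 10 called genes, tissue isoforms, complex II, the genes with the most unlike probes, called genes of the lists and a few regulators; 1 member is counted but not reported singly here. CC and MM share replicate numbers 1 to 4. Deviations of same-numbered arrays from their group means correlated at 0.55, 0.16, 0.58 and 0.19. Same-numbered arrays also lie in the same slide row, so these correlations cannot tell a pairing from the row. The numbers were used as pairs only in an alternative fit (replicate block).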

Additional observations from a re-analysis of the deposited data

Results flagged for a closer look

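Within groups of 4 arrays, single values far from the other 3 were sought with Dixon's ratio among the log ratios of 31 named genes and the medians of the family and its complexes, in 148 groups; 8 were found, and chance flags about 1 group in 20. Ndufb10, a complex I subunit that was lower in M, read 0.42 on M replicate 7 and 0.14 to 0.19 on the other M arrays. The same array was highest for the ATP synthase subunit Atp5me, at 1.40 against 0.96 to 1.03, and for the family median, at 0.62 against 0.54 to 0.55. Cox7a2l read -1.44 on M replicate 8 and -1.22 to -1.21 on the others. Ndufa4 read 1.39 on CC replicate 4 against 1.63 to 1.68, and the complex V median on that array was 0.37 against 0.54 to 0.56. The complex II anchor Sdhc read 1.01 on CC replicate 3 against 1.30 to 1.35, and the complex II median was 1.09 on MM replicate 2 against 1.22 to 1.25. No member passed the interaction test.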

How the results depend on the processing

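The count of subunit genes called in M minus C in the log ratio was 2 and became 1 without the filter on dim probes, 1 with a normexp offset of 16, 1 in the authors' deposited value table, 6 with the scanner software's log ratio, 15 with the slide row as a block, 1 within slide row 1, 0 within slide row 2 and 0 with median centring in place of loess. Leaving out 1 array at a time gave 1 to 3. In MM minus CC the count was 0 and became 2 with the row block. The counts of calls in both fostering comparisons, the interaction and the liver channel were 0 under every alternative run, and the reference channel counts stayed between 36 and 40 (M minus C) and 28 and 38 (MM minus CC) with 1 array left out. Blocking CC and MM by their shared number (replicate block), which also blocks the slide row, called 0 of the 70 genes in MM minus CC, as without it. It gave Atp5f1b 0.31 ± 0.09 (limma adjusted p = 0.142). The Atp5f1b call in M minus C was lost within row 2 and under median centring (0.73, adjusted p = 0.0628) and held under the other alternatives run. Median centring moved the family median to -0.10 in MM minus M and -0.008 in the interaction. The Ndufb10 call was also lost without the filter on dim probes, with the offset of 16, in the authors' deposited value table (-0.38, adjusted p = 0.118), within either slide row and under median centring (-0.28). The cause of these changes was not tested. Liver signal near background limits Cox6a2, Cox8b, Cox8c, Cox6c-ps1 and Cox7c, and the design cannot tell exposure from slide.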
